A study of Homo sapiens with 2 samples.

Results

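The miRNAs described here are those known for red blood cells (hsa-miR-486, hsa-miR-451a, hsa-miR-4732 and hsa-miR-144) and those known for white blood cells (hsa-miR-223, hsa-miR-142 and hsa-miR-150). They were found by name, as every table entry that is exactly 1 of these 7 stems with or without a 5p or 3p arm, and this gave 13 entries of the 2904 in the table, 7 erythroid and 6 leukocyte. The 7 stems were picked with their counts in these libraries already known, so their differences are a description and not a test. The study sequenced small RNA of the human line BEAS-2B, immortalised bronchial epithelium labelled wild type, 24 h after manganese or vehicle. There was 1 manganese library, with 1091070 counts, and 1 control library, with 1064179 counts, both from cells kept in DMEM and F-12 medium with fetal bovine serum. The sources used here give no manganese dose, and no difference below has a replicate check. The libraries are bulk, so more cells carrying a miRNA and more of it per cell cannot be told apart.

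A miRNA is cut from a hairpin in a longer transcript, and either arm of the hairpin, 5p or 3p, can be kept as the mature strand. Pairing of its seed, bases 2 to 8, with messenger RNAs sets most of its targets. In maturing red cells of mice the transcription factor GATA1 drives the hairpins of miR-144 and miR-451a, and miR-451a is known for being cut by AGO2 without Dicer. miR-486 is made within ANK1, the gene of the erythrocyte ankyrin that anchors the membrane skeleton. miR-223 is a regulator of granulocytes, miR-142 is made across blood cell lineages, and miR-150 is abundant in mature lymphocytes, where it restrains MYB. Airway epithelial cells are not known for making these miRNAs at high level.

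Mature sequences from RefSeq (GRCh38.p14) are shown for 8 of the 13 entries, to let the arms and seeds of 4 hairpins be compared; those of miR-486, miR-451a and miR-150 are not shown. Capitals mark the seed.
miR-4732-5p: uGUAGAGCagggagcaggaagcu
miR-4732-3p: gCCCUGACcuguccuguucug
miR-144-5p: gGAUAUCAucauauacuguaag
miR-144-3p: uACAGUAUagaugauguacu
miR-223-5p: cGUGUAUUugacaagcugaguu
miR-223-3p: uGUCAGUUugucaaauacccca
miR-142-5p: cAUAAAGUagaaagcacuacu
miR-142-3p: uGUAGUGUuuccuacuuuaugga
No 2 of these 8 share a seed. A search of 2370 mature RefSeq names found the full seed of miR-142-5p again only in miR-5590-3p, which had 0 counts in both libraries, and the full seeds of the other 7 in no other name. Bases 2 to 7 of miR-4732-3p also occur in miR-125a-5p, miR-125b-5p, miR-345-3p and miR-4319, which together had 4281 counts in the manganese library and 4834 in the control library. Bases 2 to 7 of miR-144-3p occur in miR-101-3p, with 214 counts in the manganese library and 249 in the control library. The arms of miR-4732 are rich in G and C, 56.5% for 5p and 61.9% for 3p, while those of miR-144, from the neighbouring hairpin, hold 31.8% and 30%.

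The hairpins lie at 5 places in GRCh38. MIR4732 (chr17:28861655-28861730), MIR144 (chr17:28861533-28861618) and MIR451A (chr17:28861369-28861440) sit in this order along the minus strand, all in an exon of the long non-coding RNA AC024267.1, within 362 bases. MIR142 (chr17:58331232-58331318, minus strand) is in an exon of the non-coding AC004687.1, and MIR223 (chrX:66018870-66018979, plus strand) in an exon of the non-coding AL034397.3. MIR150 (chr19:49500785-49500868, minus strand) has no host gene in GENCODE release 29. MIR486-1 and MIR486-2 lie on opposite strands of chromosome 8 over the same bases, in an intron of ANK1, so counts of miR-486-5p cannot be assigned to either.

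The manganese library held more of every member with counts, and most of the difference was miR-486-5p. Of the 13 entries, 11 had counts, and all 11 had more in the manganese library, while miR-223-5p and miR-150-3p were listed at 0 in both. The members together held 176681 counts in the manganese library, 16.2% of that library (95% interval 16.1 to 16.3), against 9670 counts in the control library, 0.909% (0.891 to 0.927). Their sum was 18.5-fold higher (18.2 to 18.9) after TMM scaling of the libraries. Folds here are ratios of scaled counts, manganese over control, with exact intervals that cover counting error only.

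An entry was called measured when its counts in both libraries added up to 20 or more, and an entry was counted as higher when its fold was at least 2 with an interval that excluded 1. Of the 13 entries, 7 were measured and 7 were higher, where 12.9% of all 403 measured entries were higher and 6.45% lower by the same rule. Nothing is read from this count, since the members were chosen on this contrast and 5 of the 7 reached the minimum only through their manganese counts. Their log2 folds had a median of 4.21, beside −0.08 over all measured entries, with miR-4732-5p taken at a floor of 3 control counts. Another 4 entries had counts but were not measured, namely both arms of miR-144, miR-486-3p and miR-142-3p. With no count filter 8 members were higher, where 8.5% of all entries with counts were, and with at least 100 counts 2 were, where 8.06% were.

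**Figure D1:**
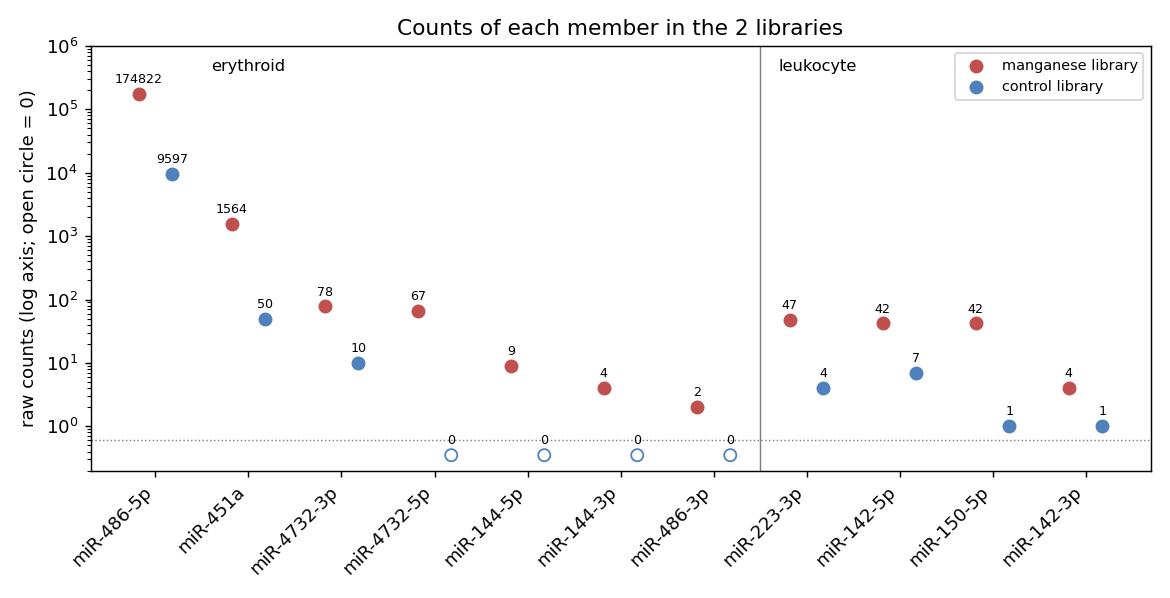
Raw counts (log axis) of the 11 members with counts, in the manganese library (red, left of each pair) and the control library (blue), 1 library each. Open circles are counts of 0. All 11 lie higher in the manganese library, and miR-486-5p, at 174822 against 9597 counts, is far above the rest.

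Among the erythroid members, miR-486-5p was the most abundant in both libraries. It had 174822 counts in the manganese library, where it ranked 3rd of all entries, against 9597 in the control library, where it ranked 18th. It made up 98.9% of all member counts in the manganese library and 99.2% in the control library, so that the sum over the members is nearly the value of this miRNA. Its passenger arm miR-486-3p had 2 counts in the manganese library and 0 in the control library, too few for a fold.

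miR-451a, which protects red cells from oxidative stress in mice, was the second most abundant member. It had 1564 counts in the manganese library against 50 in the control library, at 1462 against 46.1 CPM (counts scaled to a common library size). This was 31.7-fold higher (23.9 to 42.9), an interval wholly above that of miR-486-5p, 18.5-fold (18.1 to 18.9).

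Both arms of miR-4732, the hairpin at the 5′ end of the chromosome 17 cluster, were also higher. miR-4732-3p had 78 counts in the manganese library against 10 in the control library, 7.91-fold higher (4.08 to 17.1). miR-4732-5p had 67 counts in the manganese library against 0 in the control library. With the control count set to a floor of 3, or 2.76 CPM, it was 22.7-fold higher. The exact interval of its fold starts at 17.9. The hairpin is shown with its arms in capitals.
MIR4732: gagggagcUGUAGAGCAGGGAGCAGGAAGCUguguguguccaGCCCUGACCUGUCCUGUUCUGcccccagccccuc
The 5p arm took 67 of 145 counts of this hairpin in the manganese library, 46.2% (exact interval 37.9 to 54.7), against 0 of 10 in the control library (0 to 30.8). No shift between the arms is read from this, since the control library holds 10 counts of the hairpin. The members were also chosen on this contrast. Both arms together were 14.7-fold higher (7.77 to 31.3).

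miR-144, whose hairpin lies between MIR4732 and MIR451A, was scarce. The arm miR-144-5p had 9 counts in the manganese library and miR-144-3p had 4, against 0 for either in the control library. The exact interval of the fold of miR-144-5p starts at 2.002, and that of miR-144-3p starts at 0.670 and so includes 1. The arms sit in the hairpin as follows.
MIR144: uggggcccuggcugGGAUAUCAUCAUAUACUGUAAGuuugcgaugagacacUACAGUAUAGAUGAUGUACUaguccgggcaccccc
In the manganese library the 3 hairpins of the cluster thus gave 145 counts from MIR4732, 13 from MIR144 and 1564 from MIR451A, and they lie in 1 exon with 36 bases between MIR4732 and MIR144 and 92 between MIR144 and MIR451A. Per 1000 counts of miR-451a, both arms of miR-144 together had 8.31 (4.42 to 14.3) in the manganese library, against 0 of 50 in the control library (up to 76.6). Both arms of miR-4732 had 92.7 (77.7 to 110.0) per 1000 in the manganese library, against 200 (90.4 to 399) in the control library. The cluster as a whole was 29.1-fold higher (22.5 to 38.3), with 1722 counts in the manganese library against 60 in the control library. Of these, 1564 and 50 were miR-451a.

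**Figure D2:**
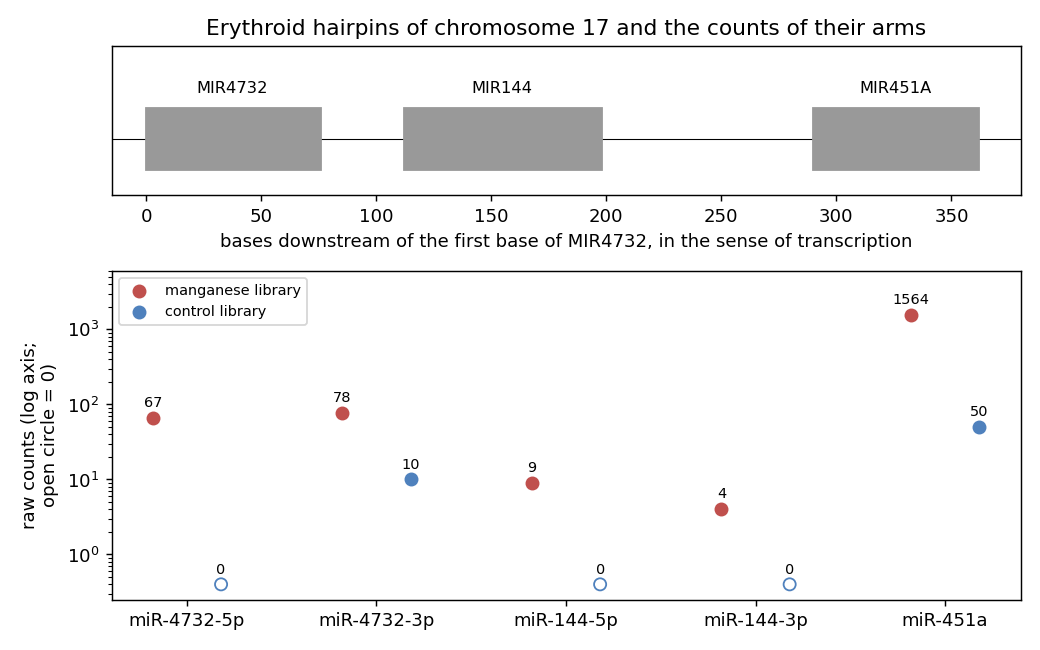
Upper panel, the 3 erythroid hairpins of chromosome 17 by distance in bases from the first base of MIR4732; lower panel, raw counts (log axis, open circles 0) of their arms in the manganese (red) and control (blue) libraries. The arms of MIR144, in the middle, have 9 and 4 counts in the manganese library, against 1564 for miR-451a.

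Leukocyte members had few counts in either library. miR-223-3p, the myeloid member, had 47 counts in the manganese library against 4 in the control library, 11.9-fold higher (4.36 to 45.6). miR-142-5p, made across blood cells, had 42 counts in the manganese library against 7 in the control library, 6.09-fold higher (2.71 to 16.1). miR-150-5p, of mature lymphocytes, had 42 counts in the manganese library against 1 in the control library, 42.6-fold higher with an interval of 7.24 to 1723. The 3 intervals overlap each other, so the counts do not order these miRNAs by fold.

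Each leukocyte hairpin gave mainly 1 arm. miR-142-5p took 42 of 46 counts of its hairpin in the manganese library, 91.3% (79.2 to 97.6), against 7 of 8 in the control library, 87.5% (47.3 to 99.7). miR-142-3p had 4 counts in the manganese library against 1 in the control library, a ratio of 4.06 with an interval of 0.402 to 199.8 that includes 1. miR-223 was read only as 3p and miR-150 only as 5p, with 0 of 47 counts of miR-223 in the 5p arm in the manganese library (up to 7.55%) and 0 of 42 counts of miR-150 in the 3p arm.

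The 4 leukocyte entries with counts summed to 135 in the manganese library against 13 in the control library, 10.5-fold higher (5.96 to 20.3), and 18.1-fold (7.46 to 57.0) without miR-142. Of the 135 counts, 34.8% (26.8 to 43.5) were miR-223-3p, 31.1% (23.4 to 39.6) miR-142-5p and 31.1% (23.4 to 39.6) miR-150-5p. Of the 13 control counts, 30.8% (9.09 to 61.4) were miR-223-3p, 53.8% (25.1 to 80.8) miR-142-5p and 7.69% (0.195 to 36.0) miR-150-5p. The myeloid, pan-blood and lymphoid members were thus near equal in the manganese library, and the control counts are too few to show whether the mixture there differed.

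Set against each other within a library, where scaling has no part, leukocyte counts were a small fraction of erythroid counts in both libraries. Per 1000 erythroid counts there were 0.765 leukocyte counts (0.641 to 0.905) in the manganese library, against 1.35 (0.717 to 2.30) in the control library. The ratio of these proportions, manganese over control, was 0.568, with an interval of 0.321 to 1.09 that includes 1, and it was 0.974 (0.402 to 3.07) without miR-142. The erythroid sum is nearly all miR-486-5p. Without miR-486, there were 78.4 leukocyte counts per 1000 erythroid counts (65.3 to 93.5) in the manganese library, against 217 (109 to 399) in the control library, a ratio of 0.362 (0.191 to 0.738). This interval excludes 1, and it rests on 13 leukocyte and 60 erythroid counts in the control library. Of the 13, 8 were from miR-142, and of the 60, 50 were from miR-451a. Without miR-142 as well, a setting chosen after seeing the data, the ratio was 0.620 with an interval of 0.243 to 2.03 that includes 1.

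Proportions among the members in each library are given as a description, since the members were chosen on this contrast. Of 16 such ratios computed, with no adjustment for their number, 5 had intervals that excluded 1. Of these 5, 4 involve members under 20 counts in the control library. Arm shares and the ratios without miR-142 are not among the 16, and the intervals of the latter include 1. Per 1000 counts of miR-486-5p, miR-451a had 8.95 (8.51 to 9.40) in the manganese library, against 5.21 (3.86 to 6.87) in the control library, a ratio of 1.72 (1.29 to 2.33). miR-4732-3p had 0.446 (0.353 to 0.557) in the manganese library, against 1.04 (0.500 to 1.92) in the control library, a ratio of 0.428 (0.221 to 0.928). miR-142-5p had 0.240 (0.173 to 0.325) in the manganese library, against 0.729 (0.293 to 1.503) in the control library, a ratio of 0.329 (0.147 to 0.869). The ratios of miR-4732-3p and miR-142-5p rest on 10 and 7 control counts, and no order of the members is read from them. For miR-223-3p, miR-150-5p and miR-4732-5p the interval of this ratio included 1, at 0.236 to 2.47 for miR-223-3p and 0.392 to 93.2 for miR-150-5p, and it started at 0.970 for miR-4732-5p.

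**Figure D3:**
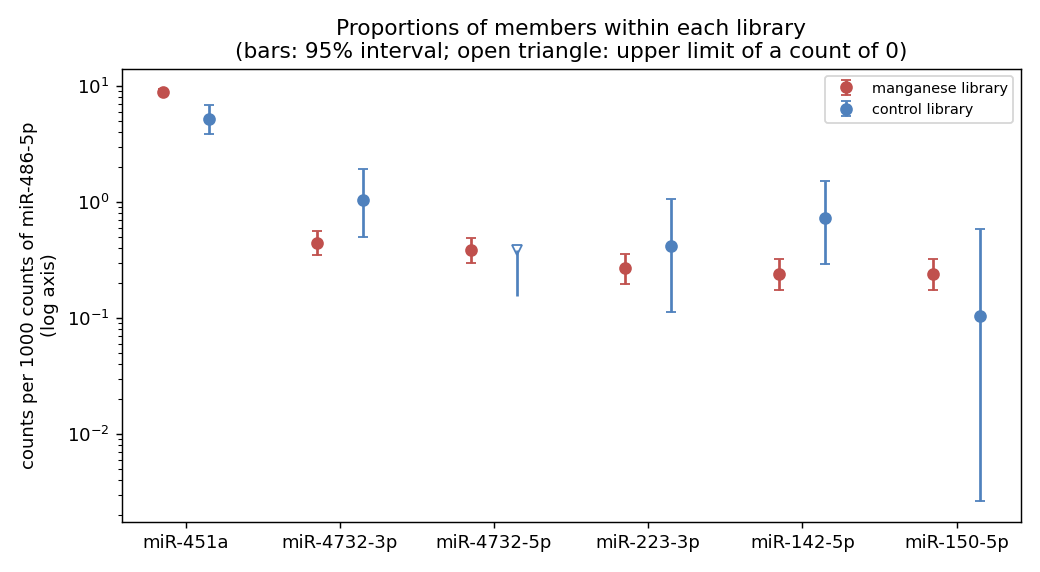
Counts of 6 measured members per 1000 counts of miR-486-5p (log axis) in the manganese (red) and control (blue) libraries, with 95% intervals; the open triangle is the upper limit that a control count of 0 allows for miR-4732-5p. miR-451a stands at 8.95 in the manganese library against 5.21 in the control library, and the control intervals of the leukocyte members are wide.

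Other miRNAs linked to blood cells had lower median folds than the members, with exceptions named here. The members were chosen on this contrast, so nothing is read from that difference. Of 11 entries linked to red cells 9 were measured, 2 were higher and 0 lower, with a median log2 fold of 0.08 beside −0.08 over all measured entries. Those higher were miR-92a-3p, with 1905 counts in the manganese library against 424 in the control library (4.56-fold, 4.10 to 5.08), and miR-96-5p with 22 against 4 (5.58-fold, 1.90 to 22.3). The cell-cycle regulator miR-16-5p, a main miRNA of red cells, had 23907 counts in the manganese library against 26968 in the control library (fold 0.899, 0.884 to 0.915). For miR-182-5p the counts were 3201 in the manganese library against 3066 in the control library (1.06-fold, 1.01 to 1.11). Other scalings moved the median over all measured entries by up to 0.19 on the log2 scale. No direction is therefore read from folds this near 1. miR-451b, on the strand opposite MIR451A, was listed at 0 in both.

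Of 12 entries linked to leukocytes 6 were measured, 1 was higher and 0 lower, with a median log2 fold of 0.33. The 1 higher was miR-342-5p, with 47 counts in the manganese library against 15 in the control library (3.18-fold, 1.75 to 6.12), while its partner arm miR-342-3p had 55 against 43 (1.30-fold, 0.855 to 1.98). miR-155-5p, an immune regulator, had 3180 counts in the manganese library against 2811 in the control library (1.15-fold, 1.09 to 1.21). miR-181a-5p had 9699 against 13104 (fold 0.751, 0.731 to 0.771). Among entries below the minimum, manganese counts were under control counts for miR-139-3p (0 against 7), miR-139-5p (3 against 10) and miR-146b-3p (3 against 4). Manganese counts were above control counts for miR-146a-3p (6 against 0), miR-155-3p (6 against 2) and miR-650 (2 against 0).

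Markers of further cell types moved in part with the members, and their part in the results above was not tested. Of the 4 platelet and endothelial entries, 2 were measured and both were higher. The entry that joins miR-199b-3p with miR-199a-3p had 76 counts in the manganese library against 25 in the control library, and miR-126-3p had 39 against 19. Below the minimum, miR-126-5p, the other arm of miR-126, had fewer in the manganese library, 8 against 11, and miR-326 had 5 against 0. The list sum was 128 in the manganese library against 55 in the control library. Of the 4 muscle entries only miR-1-3p had counts, 25 in the manganese library against 10 in the control library, and the liver miR-122-5p and miR-122-3p were at 0 in both. The 6 airway epithelium entries listed had low counts, with a sum of 224 in the manganese library against 112 in the control library. Of the 3 measured, 2 were higher, miR-200b-3p and miR-429. The list leaves out miR-182-5p, miR-183-5p and miR-96-5p, which are also grouped with epithelial miRNAs but were placed among the red cell entries above. Of these, miR-182-5p had 3201 counts in the manganese library against 3066 in the control library, and miR-183-5p had 81 against 83. Counts of miR-200b-3p were 74 in the manganese library against 32 in the control library, those of miR-429 were 60 against 29, and those of miR-200a-3p were 70 against 45. The defining epithelial miR-205-5p had 11 counts in the manganese library against 3 in the control library, miR-200c-3p had 7 against 3, and miR-141-3p had 2 against 0.

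**Figure D4:**
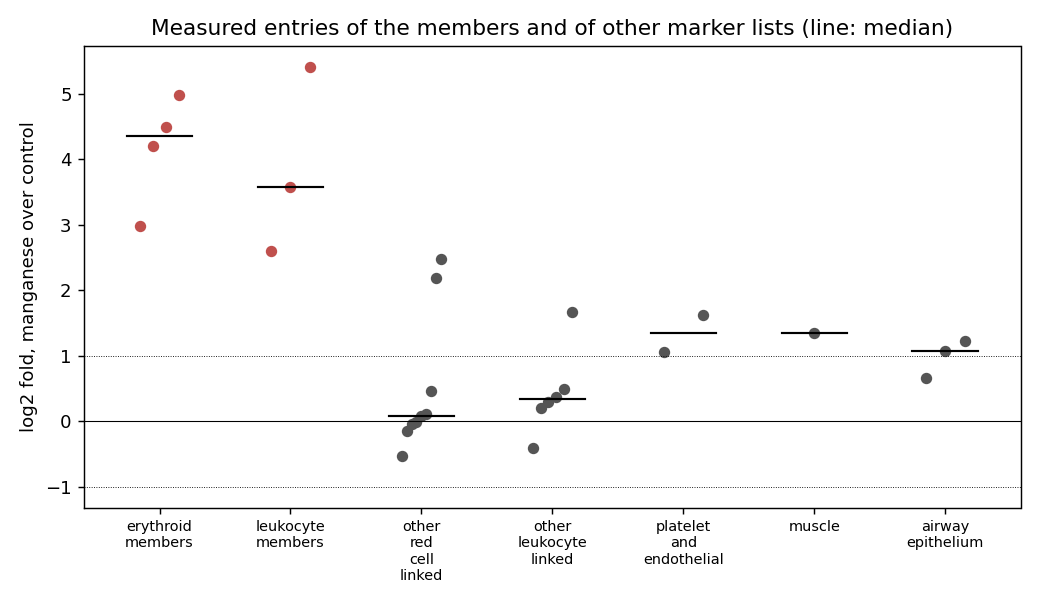
Log2 fold, manganese over control, of each measured entry of the erythroid and leukocyte members (red) and of 5 other marker lists (grey), with the median as a line and 2-fold as dotted lines. The liver list has no measured entry. The members, which were chosen on this contrast, lie at 2.61 or above, and the medians of the other lists between 0.08 and 1.34.

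The measured entries outside the members whose log2 fold was nearest that of miR-486-5p, over the 2 libraries, were a joined entry of the placental 19q13 cluster holding miR-522-5p and 5 further names, miR-483-5p, miR-143-3p, miR-526b-5p and miR-515-5p. Their folds ran from 13.5 to 27.4, and their counts in the manganese library from 27 to 354 against 1 to 26 in the control library. With 2 libraries such likeness is a likeness of 1 ratio.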

How the data were processed

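Small RNA of 1 manganese and 1 control library of BEAS-2B cells was measured, sampled at 24 h. The deposited table gives raw counts per mature miRNA entry. The unit was read from the values, which are whole numbers with different totals. Per the submitters' processing notes, the genome build was hg38; the sources used here name no aligner, counter, annotation, trimming or filter. A further deposited table of differences held manganese minus control counts in 2904 of 2904 entries (tolerance 0 counts), per the file's values, and was not used further.

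Libraries were scaled with TMM factors of edgeR 4.0.16 in R 4.3.3, 0.981 for manganese and 1.02 for control. Folds and shares have exact conditional binomial (Clopper-Pearson) 95% intervals, and ratios of ratios exact conditional odds-ratio intervals (scipy 1.17.1, Python 3.11.15). For folds, 0 counts were replaced by a floor of 3. Without molecular identifiers, intervals and floors cover counting error only. With 1 library per group no p-value is given. The functions were tested on simulated counts. Named entries were every member with counts and the 5 measured others nearest to miR-486-5p in log2 fold. Of each other list, entries that passed the rule of size and the 2 most abundant were named. Entries below the minimum of the epithelial, muscle, liver, leukocyte-linked, platelet and endothelial lists were named after their values were seen. So were miR-342-3p and miR-451b. Members and lists were chosen with earlier results of these data known. Alternatives covered scaling (DESeq2 1.42.0 among them), filters, thresholds, a pseudocount and subsets of members. Hairpin positions came from GENCODE release 29.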

Additional observations from a re-analysis of the deposited data

How the results depend on the processing

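No paired analysis was possible because each group holds 1 library, and for the same reason no replicate could be left out. In none of the alternatives run did a member's fold or a member sum change direction. The summed erythroid fold, 18.5, was 17.8 when scaled by total counts, and 21.1 both without the 5 most abundant entries in the totals and without the member entries in them. Those 2 scalings moved the median over the measured entries by 0.19 and 0.18 on the log2 scale. The same sum was 29.1 without miR-486, which is the chromosome 17 cluster again. It was 16.0 for miR-4732 and miR-144 alone, a subset chosen after seeing the data. The leukocyte sum, 10.5-fold, was 18.1-fold without miR-142, 9.92-fold without miR-223 and 7.86-fold without miR-150, all within its interval. The leukocyte to erythroid ratio, 0.568, was 0.974 without miR-142, and 0.332 (0.172 to 0.684) against miR-451a alone, also chosen after seeing the data. It was 0.620 without both miR-486 and miR-142. At a minimum of 100 counts 2 members were higher, since the other 5 measured members have fewer counts. With no filter 8 were higher. Of 35 alternatives for the folds of single members, 32 stayed within the fold's interval and 3, all for miR-486-5p under other scalings, did not, at 17.8, 21.02 and 21.01. For members with few control counts that interval is wide, so staying within it shows little. It runs from 7.24 to 1723 for miR-150-5p and has no upper end for miR-4732-5p. With a pseudocount of 1, miR-4732-5p was at 69.0 and miR-150-5p at 21.8, since their control counts were 0 and 1. The members' share of the manganese library was 16.6% when its total held only entries with hsa- names. Depth limits the members with few control counts, 13 for the leukocyte sum, 10 for miR-4732 and 0 for miR-144.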

Other observations

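The table also holds 4 entries with a p- prefix on the stems of miR-142, miR-144, miR-150 and miR-223, and these had 0 counts in both libraries. The sources used here do not explain the prefix. Entries outside the members had 914389 counts in the manganese library against 1054509 in the control library, a fold of 0.880 (0.877 to 0.882) after scaling. The libraries have similar totals, so the larger share held by the members leaves fewer counts for the rest. No fall of other miRNAs is read from this fold. Of all counts by which entries were higher in the manganese library, unscaled, 87.0% belonged to the members. The entry p-hsa-miR-338 had 69 counts in the manganese library against 1 in the control library.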
